A study of Homo sapiens with 6 samples.

Results

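Toll-like receptors and interleukin-1 receptors pass their signal through a short chain of adaptors and kinases, and 10 genes of that chain are described here: MYD88, TOLLIP, IRAK4, IRAK1, TRAF6, MAP3K7, TAB1, TAB2, TAB3 and SASH1. They are 10 of the 64253 genes in the count table. They were chosen by name, with the fold changes of these same libraries already known. Their differences between the groups are therefore a description, without a test, and support nothing by themselves.

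RNA came from NCI-H1299, an established human lung cancer cell line that the labels class as lung adenocarcinoma. The first group was 3 libraries of H1299 cells carrying a plasmid for MTSS1 with an mCherry tag, stably introduced, kept under hygromycin and sorted by flow cytometry. The labels name HEK293T cells in the transfection step and do not say whether the line is 1 clone. The other group was 3 libraries of H1299 wild type cells. A line with a control plasmid is not among the libraries, so an effect of MTSS1 cannot be told apart from one of the tag, the drug or the sorting. Whether replicates came from separate cultures is not stated. The p-values then measure library-to-library spread, which may be technical. The study's title asks about MTSS1 and the activity of NF-κB through phosphorylation of its RelA subunit, which counts of RNA do not measure.

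As background, a ligand-bound receptor of this class recruits the adaptor MyD88, which gathers the kinases IRAK4 and IRAK1. IRAK1 engages TRAF6, a ubiquitin ligase whose chains are read by TAB2 and TAB3. These bring in the kinase TAK1 (gene MAP3K7) with its activator TAB1, and TAK1 then switches on the IKK complex of the NF-κB pathway and the JNK and p38 kinases. TOLLIP binds IRAK1 and restrains the signal, and SASH1 is a scaffold protein with SH3 and SAM domains that has been reported to bind TRAF6 and TAK1 in endothelial cells.

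MTSS1 itself, read as a check of the labels, averaged 554 ± 12.4 CPM in overexpressing cells and 22.1 ± 3.62 CPM in wild type cells (SD, n = 3 each). CPM puts the counts of all libraries on 1 scale, with TMM factors for their composition. The markers fixed for the labelled tumour type were low in both groups: SFTPB, SFTPA1 and SLC34A2 had no count in any of the 6 libraries. The 7 lung adenocarcinoma markers summed to 4.26 to 4.92 CPM in overexpressing libraries and 2.05 to 2.86 CPM in wild type libraries. The 5 epithelial markers, 3 of them under 1 CPM on average, summed to 254 to 466 CPM in overexpressing libraries and 569 to 850.3 CPM in wild type libraries. KRT8 passed the test among them, at 49.6 ± 19.2 CPM in overexpressing and 165 ± 41.2 CPM in wild type cells (SD, n = 3 each; log2 fold change -1.74, edgeR adjusted p = 0.011). KRT18 had -0.80 and EPCAM, under 1 CPM, went the other way at 0.66 (edgeR adjusted p = 0.061 and 0.44). CDH1 and KRT19 were not tested. The 4 mesenchymal markers summed to 4776 to 4997 CPM in overexpressing libraries and 4443 to 4666 CPM in wild type libraries, nearly all of it VIM. FN1 passed the test among them, at 53.3 ± 7.99 CPM in overexpressing and 35.9 ± 3.4 CPM in wild type cells (SD, n = 3 each; log2 fold change 0.57, edgeR adjusted p = 0.038). In bulk RNA, fewer cells with a transcript and less of it per cell cannot be told apart.

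Of the 10 genes, 9 had enough counts to be tested and MYD88 did not. SASH1 and TAB2 were lower in overexpressing cells and IRAK1 was higher, and these 3 passed edgeR's quasi-likelihood test at an adjusted p under 0.05. The other 6 tested genes did not pass. Of all genes tested, 688 of 16091 (4.28%) passed, 293 (1.82%) higher and 395 (2.45%) lower in overexpressing cells. CPM values of the groups did not overlap for 5 of the 9 genes, against 25.5% of all tested genes. Since this contrast was known when the genes were chosen, nothing is read from these counts. The median log2 fold change was -0.08 over the 9 genes and 0.0046 over all tested genes.

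**Figure D1:**
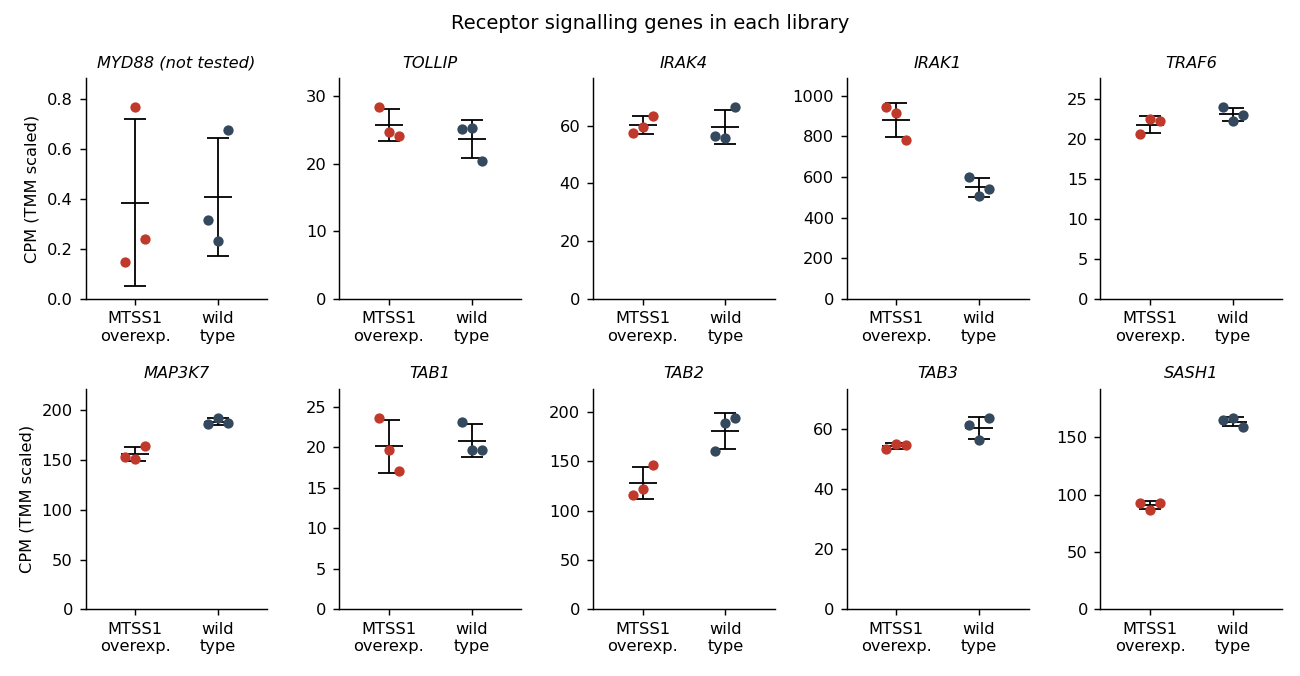
CPM (vertical axis, from 0) of the 10 genes in the MTSS1-overexpressing libraries (red, left) and the wild type libraries (dark, right) of each panel; points are libraries, and the bars give the mean and SD of 3. The groups are apart for IRAK1, MAP3K7, TAB2, TAB3 and SASH1 and overlap for the others.

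The adaptor gene MYD88 (ENSG00000172936, chromosome 3, 38138478 to 38143022, GRCh38) was listed with very few reads. It had 2, 20 and 6 counts in the overexpressing libraries and 6, 7 and 18 counts in the wild type libraries, replicates 1 to 3 of each. In each group 1 library held most of the reads, and the groups overlapped. The pooled ratio of overexpressing to wild type cells was 1.06 (exact 95% interval 0.612 to 1.82, counting error only). Its chromosomal neighbours were well covered, with 5714 and 6565 pooled counts for OXSR1 and 1255 and 1286 for ACAA1 in overexpressing and wild type cells. B2M, a gene that nearly every cell expresses, was likewise listed at 23 pooled counts in overexpressing and 34 in wild type cells, so low counts in this table do not show that a gene is silent.

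IRAK4, the kinase that MyD88 recruits first (chromosome 12, 43758944 to 43789543), had values of 57.4, 59.5 and 63.5 CPM in overexpressing libraries and 56.3, 55.8 and 66.4 CPM in wild type libraries. The highest and the lowest of these 6 values were both from wild type libraries. Its log2 fold change was 0.02 (SE 0.10). TOLLIP (chromosome 11, 1274371 to 1309654) stood at 28.4, 24.7 and 24.1 CPM in overexpressing libraries and 25.2, 25.3 and 20.4 CPM in wild type libraries. The groups overlapped here too, with a log2 fold change of 0.12 (SE 0.13).

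IRAK1 (ENSG00000184216, X chromosome, 154010500 to 154019980), the kinase that carries the signal on to TRAF6, was the one member that passed the test upward. Its overexpressing libraries had 944, 915 and 784 CPM, against 598, 506 and 543 CPM in wild type libraries. Every overexpressing library lay above every wild type library. The log2 fold change was 0.68 (SE 0.10), a level 60.5% higher. With IRAK4 hardly different, the ratio of IRAK1 to IRAK4 per exon length was 23.1, 21.6 and 17.4 in overexpressing libraries, against 14.9, 12.7 and 11.5 in wild type libraries. Without wild type replicate 3, IRAK1 no longer passed, at a log2 fold change of 0.67.

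The genes around IRAK1 were mostly higher as well. Its 50 nearest tested genes, over 2.21 Mb at the end of the X chromosome, had a median log2 fold change of 0.69. Of these, 25 passed the test higher and 0 lower. TMEM187, a protein-coding gene beside it, averaged 11 ± 1.09 CPM in overexpressing cells and 6.67 ± 0.838 CPM in wild type cells (SD, n = 3 each; log2 fold change 0.72, SE 0.16, edgeR adjusted p = 0.039). Relative to the median of its neighbours, IRAK1 had a log2 fold change of -0.01 (SE 0.10) and did not pass.

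TRAF6 (chromosome 11, 36487027 to 36510272) stood at 20.6, 22.5 and 22.3 CPM in overexpressing libraries and at 24.0, 22.3 and 23.0 CPM in wild type libraries. The groups overlapped, and the log2 fold change was -0.08 (SE 0.11). Its 50 neighbours had a median of -8e-04.

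In the TAK1 complex, the kinase gene MAP3K7 (ENSG00000135341, chromosome 6, 90513573 to 90587045) stood at 153, 150.4 and 164 CPM in overexpressing libraries, against 186, 192 and 187 CPM in wild type libraries. Every overexpressing library lay below every wild type library. The log2 fold change of -0.27 (SE 0.07) did not pass the test, and passed it with neighbouring title numbers as a replicate block (-0.27). The activator gene TAB1 (chromosome 22, 39399741 to 39437060) stood at 23.6, 19.6 and 17.1 CPM in overexpressing libraries and at 23.1, 19.7 and 19.6 CPM in wild type libraries. Replicate 1 was the highest library in each group and the groups overlapped, and the log2 fold change of TAB1 was -0.05 (SE 0.14).

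The related adaptors TAB2 and TAB3, which read ubiquitin chains, differed in size of change. TAB2 (ENSG00000055208, chromosome 6, 149218641 to 149411613) stood at 116, 122 and 146 CPM in overexpressing libraries, against 160.3, 189 and 194 CPM in wild type libraries. The groups did not overlap, and replicate 3 was the highest library in each. The log2 fold change was -0.50 (SE 0.11), a level that fell by 29.4%. TAB3 (X chromosome, 30827442 to 30975084) stood at 53.2, 55.0 and 54.7 CPM in overexpressing libraries, against 61.2, 56.4 and 63.7 CPM in wild type libraries. These also did not overlap, but the gap was narrow, and the log2 fold change of -0.15 (SE 0.08) did not pass. The ratio of TAB2 to TAB3 per exon length averaged 4.97 ± 0.572 in overexpressing cells and 6.35 ± 0.777 in wild type cells (SD, n = 3 each). TAB2 did not pass the test without MTSS1 overexpressing replicate 1 or 2 or wild type replicate 2 or 3, where its log2 fold change was -0.43, -0.46, -0.47 and -0.45.

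SASH1 (ENSG00000111961, chromosome 6, 148272304 to 148552050), the scaffold, had the largest log2 fold change of the 9 in size. It stood at 93.2, 86.9 and 92.4 CPM in overexpressing libraries, against 165, 167 and 159 CPM in wild type libraries. The 3 libraries within each group lay close together and the groups were far apart. The log2 fold change was -0.85 (SE 0.07), a level that fell by 44.5%. With 1 library left out it lay between -0.87 and -0.81, and SASH1 passed in all 6 of these fits. SASH1 per exon length stood at 1.97, 1.69 and 1.81 times TRAF6 in overexpressing libraries, against 3.00, 3.27 and 3.03 times in wild type libraries.

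**Figure D2:**
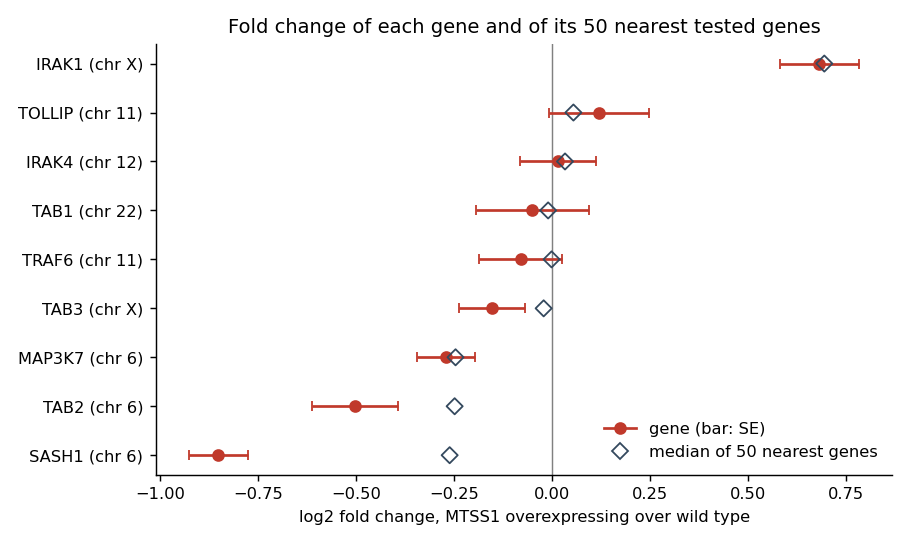
Log2 fold change of MTSS1-overexpressing over wild type cells (horizontal axis) for the 9 tested genes, with SE as bars, and the median log2 fold change of the 50 nearest tested genes of each (open diamonds). IRAK1 and MAP3K7 lie on their neighbours' medians of 0.69 and -0.25, whereas SASH1 at -0.85 lies below its neighbours' -0.26.

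SASH1, TAB2 and MAP3K7 share chromosome 6, and SASH1 and TAB2 are separated by 667 kb. The one tested gene between them is UST, which encodes a sulfotransferase. UST averaged 35.8 ± 0.745 CPM in overexpressing cells and 42.9 ± 2.43 CPM in wild type cells (SD, n = 3 each; log2 fold change -0.26, SE 0.09, edgeR adjusted p = 0.15). Most genes of this stretch leaned the same way. Of the 50 tested genes nearest to SASH1, 44 had a log2 fold change below 0, and 6 passed the test lower and 0 higher. The median was -0.26. The 50 nearest to TAB2 had a median of -0.25, with 6 lower and 0 higher. The stretches that hold these genes, of 9.59 and 10.6 Mb, overlap for the most part, so they do not count as separate observations.

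MAP3K7 lies far from SASH1 and TAB2 on the chromosome, and its own 50 neighbours also had a median of -0.25, with 5 lower and 0 higher. The protein-coding genes next to it, BACH2 and EPHA7, had log2 fold changes of -0.21 (SE 0.15) and -0.53 (SE 0.19) (edgeR adjusted p = 0.51 and 0.16), short of the threshold. Over all 777 tested genes of chromosome 6 the median was -0.13.

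SASH1 and MAP3K7 stood differently against these surroundings. Among the 50 nearest genes, 3 had a lower log2 fold change than SASH1 and 23 a lower one than MAP3K7, with TAB2 between them at 11. Relative to the median of its neighbours, SASH1 had a log2 fold change of -0.59 (SE 0.07) and still passed. TAB2 had -0.25 (SE 0.11) and MAP3K7 -0.02 (SE 0.07), and neither passed. The median was entered as a fixed value, so these SEs leave out its own error and the spread of the neighbours. SAMD5, the other protein-coding neighbour of SASH1, had -0.20 (SE 0.17, edgeR adjusted p = 0.58). TAB3, on the same chromosome as IRAK1, had neighbours with a median of -0.02.

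**Figure D3:**
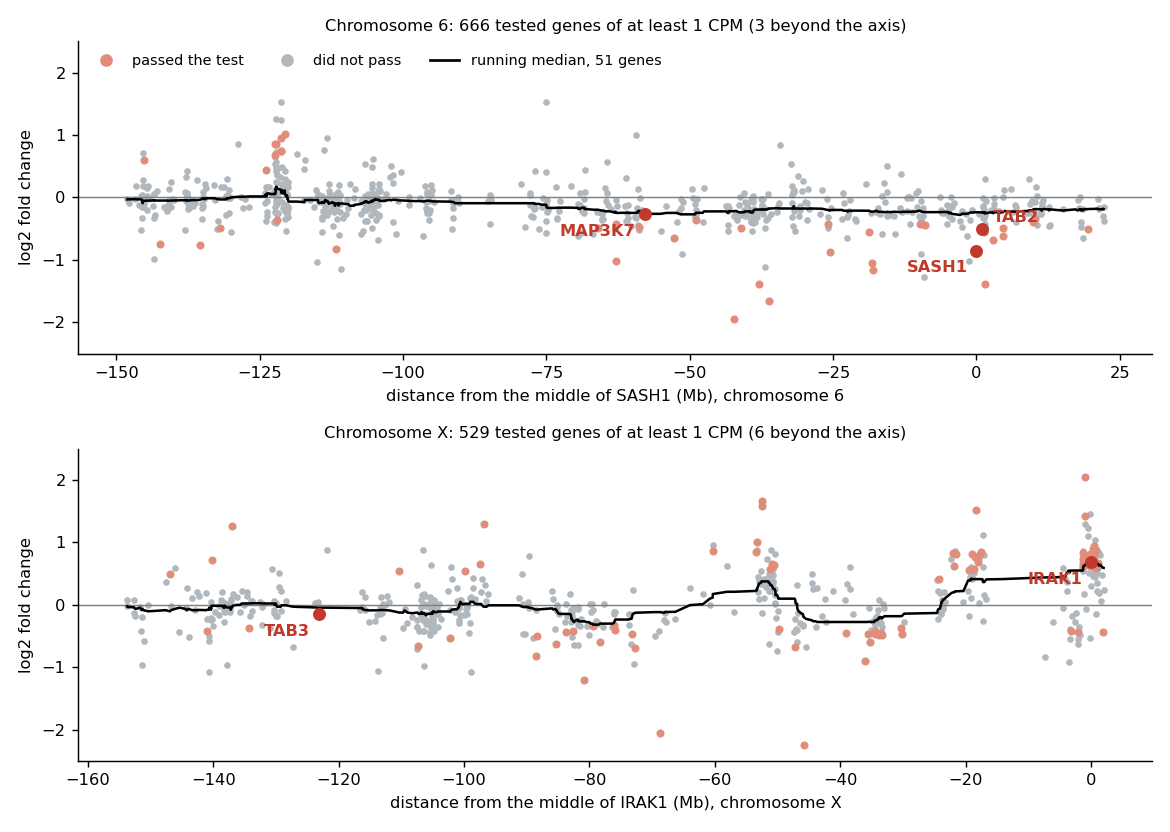
Log2 fold change of tested genes with at least 1 CPM by distance in Mb from the middle of SASH1 (upper panel, chromosome 6, 666 genes) and of IRAK1 (lower panel, X chromosome, 529 genes), with a running median over 51 genes; the described genes are large red points, other genes that passed the test salmon, the rest grey, and 3 and 6 genes lie beyond the axes. The running median lies below 0 from MAP3K7 to TAB2 and SASH1 on chromosome 6, near 0 at TAB3 and high at IRAK1 on the X chromosome.

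Few reads were assigned to genes that overlap the described ones, though such counts cannot show how shared reads were handled. In the annotation SUMO4 lies inside TAB2 and had 19 counts over the 6 libraries, against 22283 for TAB2, and an antisense gene inside SASH1 had 11, against 18236 for SASH1. No annotated gene overlapped IRAK1 or MAP3K7 among the identifiers of the table with coordinates.

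Promoter windows of the 3 genes that passed are shown where they hold a κB motif, because the study's title concerns NF-κB. The κB consensus, a motif of 10 letters that starts with GGG and ends with CC, was searched on both strands in the 250 bases before each RefSeq start (GRCh38.p14). It was found in 9.95% of 34943 such windows, and in 4 of 15 windows of the 10 genes, 1 each of SASH1, TAB2, TOLLIP and IRAK1. TOLLIP, which did not pass the test, had 3 matches in that window, against 2, 2 and 1 for SASH1, TAB2 and IRAK1, overlapping matches counted singly. SASH1, TAB2 and TOLLIP have other starts without a match, and the counts do not show which start was used. The AP-1 motif TGANTCA was found in 6.59% of windows and in 1 window of SASH1. The stretches below run 5′ to 3′ on the gene's strand, with κB matches in capitals, overlapping matches merged. Of SASH1 (chr6:148342603-148342632, plus strand), 30 bases are given, since the match lies in an annotated exon. Of TAB2 (chr6:149318050-149318299, plus strand) and IRAK1 (chrX:154019990-154020152, minus strand), the part outside annotated exons is given. A match is a description of these letters and shows no binding.
SASH1: gaggggtcccGGGGAGCTCCCtccaagatc
TAB2: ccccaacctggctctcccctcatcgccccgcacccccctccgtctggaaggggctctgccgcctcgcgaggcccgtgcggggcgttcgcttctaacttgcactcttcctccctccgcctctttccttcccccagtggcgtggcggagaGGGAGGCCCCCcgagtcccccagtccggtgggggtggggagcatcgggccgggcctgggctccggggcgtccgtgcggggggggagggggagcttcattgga
IRAK1: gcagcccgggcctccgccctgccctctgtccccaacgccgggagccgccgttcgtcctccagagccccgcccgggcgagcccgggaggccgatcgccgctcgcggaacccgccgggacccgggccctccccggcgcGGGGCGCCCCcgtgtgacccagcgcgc

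To compare levels between genes, CPM was divided by the total exon length in kb. IRAK1 was by far the most abundant, at 220.2 ± 21.4 CPM per kb in overexpressing cells and 137 ± 11.7 in wild type cells (SD, n = 3 each). TAB2 averaged 21.3 ± 2.61 CPM per kb in overexpressing and 30.1 ± 3.02 in wild type cells, and MAP3K7 21.6 ± 1.01 in overexpressing and 26 ± 0.449 in wild type cells. By this length their ranges overlapped in overexpressing cells and not in wild type cells. With the longest transcript as length, wild type TAB2 averaged 39.8 ± 3.99 and MAP3K7 38.3 ± 0.661 CPM per kb (SD, n = 3 each). Their separation in wild type cells therefore depended on the length used. SASH1 averaged 8.15 ± 0.307 CPM per kb in overexpressing cells and 14.7 ± 0.341 in wild type cells, and IRAK4 10.7 ± 0.546 in overexpressing and 10.6 ± 1.06 in wild type cells. SASH1 therefore ranked below IRAK4 in overexpressing cells and above it in wild type cells, with no overlap of their ranges in either group. TAB3, TRAF6, TAB1 and TOLLIP averaged 4.27 to 4.51 CPM per kb in overexpressing and 3.95 to 4.75 in wild type cells, and TAB3, TRAF6 and TAB1 overlapped in both groups. That overlap also depended on the length. With the longest transcript, TAB3 averaged 7.57 ± 0.468 and TRAF6 4.99 ± 0.191 in wild type cells (SD, n = 3 each). MYD88 had the lowest values, at 0.0966 CPM per kb in overexpressing and 0.102 in wild type cells. Given the low counts of B2M in the same table, these may not reflect its level.

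The genes whose pattern over the 6 libraries lay closest to SASH1 were found by the root mean square difference of centred log2 CPM, among 10814 genes averaging 5 CPM or more. The closest was BHLHE40, a transcription factor gene on chromosome 3, with a difference of 0.05 on the log2 scale and a log2 fold change of -0.84. TM4SF1, PRICKLE1 and CDKN1A were also close, with differences of 0.07 each and log2 fold changes of -0.80, -0.98 and -0.83. CDKN1A is on chromosome 6 and the others are not.

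The rest of the pathway was read from 7 lists with 123 genes, none of them among the 10. Of these, 91 were tested and 0 passed edgeR's test in either direction. At an unadjusted p under 0.05 there were 23 of 91 (25.3%), 9 higher and 14 lower, against 19.8% of all tested genes. The count depended on the method. With neighbouring title numbers as a replicate block 28 of 91 passed (12 higher, 16 lower; 30.8%), against 22.7% of all genes in that fit. DESeq2 called 6 of 93 against 7.23% of all genes, edgeR without a filter on low counts 10 of 116 against 5.19%, and the neighbour offset 1 of 91 against 2.09%. The genes called by DESeq2 were CYLD, MAPK9 and RPS6KA5 (higher) and SIGIRR, TLR6 and TRIM38 (lower). Genes named from each list below, apart from MAPK8 and MAPK14, were picked by smallest adjusted p in the fit without a block, from these same libraries. Their passing with the block is therefore no separate support.

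**Figure D4:**
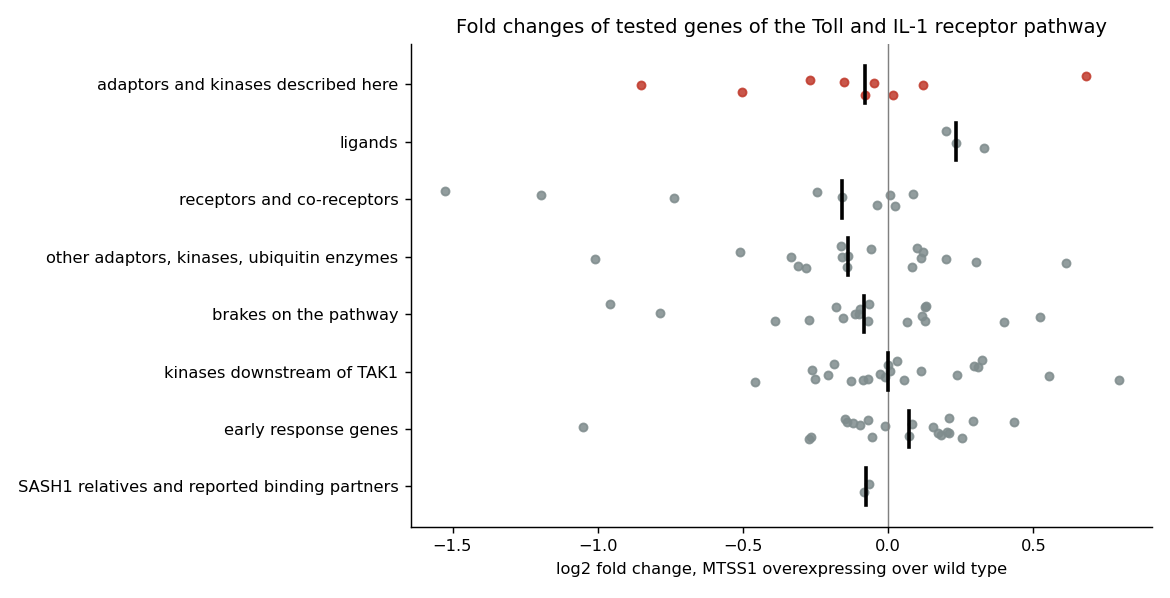
Log2 fold change of MTSS1-overexpressing over wild type cells (horizontal axis) for each tested gene of the 9 adaptors and kinases (red) and of the 7 other lists (grey); vertical marks are medians. The medians of the lists lie between -0.16 (receptors) and 0.23 (ligands).

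Ligands and receptors were sparsely detected. Of 12 ligand genes, 3 were tested, and 8 had fewer than 20 counts over the 6 libraries, IL1A, IL1B and IL33 among them. The tested ones were HSPD1, HMGB1 and S100A9, whose proteins have been described as damage signals for these receptors, with log2 fold changes of 0.33, 0.20 and 0.23 (edgeR adjusted p = 0.22, 0.56 and 0.93). S100A9 averaged only 0.691 CPM in overexpressing and 0.601 CPM in wild type cells, with 0 counts in replicate 1 of each group. The SE of its log2 fold change was 1.01. HMGB1 had values of 0.07 without wild type replicate 2, 0.08 without MTSS1 overexpressing replicate 1 and 0.35 without wild type replicate 1, and HSPD1 had 0.20 without wild type replicate 2. With the replicate block HSPD1 and HMGB1 passed (edgeR adjusted p = 0.0014 and 0.01). Of 24 receptor and co-receptor genes, 9 were tested, with a median log2 fold change of -0.16. TLR6, which pairs with TLR2, stood at 7.64, 12.1 and 7.48 CPM in overexpressing libraries, against 13.6, 15.4 and 16.6 CPM in wild type libraries. The groups did not overlap, but the log2 fold change of -0.74 (SE 0.20) did not pass (edgeR adjusted p = 0.073). Its log2 fold change was -0.48 with the neighbour offset. The interleukin-1 receptor gene IL1R1 averaged 1.71 ± 1.32 CPM in overexpressing cells and 4.77 ± 1.36 CPM in wild type cells (SD, n = 3 each; log2 fold change -1.53, SE 0.64, edgeR adjusted p = 0.22). MTSS1 overexpressing replicate 2 stood at 0.192 CPM, against 2.64 and 2.28 CPM in the other overexpressing libraries, and without it the log2 fold change of IL1R1 was -0.95. Its partner IL1RAP had -0.16 (edgeR adjusted p = 0.46), and the flagellin receptor gene TLR5 -1.19 at under 1 CPM (edgeR adjusted p = 0.28; -1.81 without MTSS1 overexpressing replicate 2). With the block TLR6 and IL1R1 passed (edgeR adjusted p = 0.0046 and 0.01).

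Leukocyte markers were checked because these receptors are typical of such cells. The 7 markers summed to 10.1 to 12.7 CPM in overexpressing libraries and 5.73 to 7.67 CPM in wild type libraries. The gap came from ITGAM: without it, the other 6 markers summed to 1.47, 4.04 and 3.08 CPM in overexpressing libraries and 2.07, 4.53 and 3.15 CPM in wild type libraries, which overlap. Of the 7, 1 passed the test, the integrin gene ITGAM, at 8.16 ± 1.89 CPM in overexpressing and 3.57 ± 0.389 CPM in wild type cells (SD, n = 3 each; edgeR adjusted p = 0.021). The defining leukocyte gene PTPRC averaged 0.675 CPM in overexpressing and 0.470 CPM in wild type cells, and CD3E had 4 counts in overexpressing and 3 in wild type cells. Their part in the receptor values was not tested.

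Of 19 other adaptors, kinases and ubiquitin enzymes, 17 were tested, with a median log2 fold change of -0.14. TIRAP, which bridges MyD88 to some receptors, had -0.51 (SE 0.18, edgeR adjusted p = 0.15), ECSIT -0.34 (edgeR adjusted p = 0.18) and RBCK1, a subunit of the linear ubiquitin ligase, -0.31 (edgeR adjusted p = 0.19). SQSTM1, the autophagy receptor p62 that binds TRAF6, averaged 1429 ± 479 CPM in overexpressing and 935 ± 241 CPM in wild type cells (SD, n = 3 each; log2 fold change 0.61, edgeR adjusted p = 0.19). Its groups overlapped, and without MTSS1 overexpressing replicate 2 the log2 fold change of SQSTM1 was 0.32. Within neighbouring title numbers SQSTM1 was higher in the overexpressing library each time, and with the block it passed (log2 fold change 0.59, edgeR adjusted p = 1.7e-05). TIRAP, ECSIT and RBCK1 also passed with the block (edgeR adjusted p = 0.026, 0.023 and 0.0031). Relative to their chromosomal neighbours, TIRAP had -0.29 and SQSTM1 0.40.

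Among 18 brakes, all of them tested, the median log2 fold change was -0.08. CYLD, a deubiquitinase that removes TRAF6-type chains, averaged 56.8 ± 3.86 CPM in overexpressing and 43.1 ± 3.23 CPM in wild type cells (SD, n = 3 each; log2 fold change 0.40, SE 0.10, edgeR adjusted p = 0.053). TRIM38, which has been described as a negative regulator of TAB2 and TRAF6, averaged 58.5 ± 4.02 CPM in overexpressing and 76.7 ± 6.89 CPM in wild type cells (SD, n = 3 each; log2 fold change -0.39, SE 0.10, edgeR adjusted p = 0.054). TRIM38 was the one gene of all 7 lists that passed with the neighbour offset. Its log2 fold change with the offset was -0.56, a larger difference than without it, since its neighbours had a positive median. The inhibitory receptor gene SIGIRR and the kinase-dead family member IRAK3 had log2 fold changes of -0.96 and -0.79 (edgeR adjusted p = 0.12 and 0.14). Both were at low levels. SIGIRR averaged 3.65 ± 1.48 CPM in overexpressing and 7.07 ± 1.16 CPM in wild type cells, and IRAK3 1.7 ± 0.304 and 2.91 ± 0.131 CPM (SD, n = 3 each). Without MTSS1 overexpressing replicate 3 the log2 fold change of SIGIRR was -0.64. With the block all 4 passed, CYLD higher and TRIM38, SIGIRR and IRAK3 lower (edgeR adjusted p = 0.0036, 0.00079, 0.011 and 0.045). That fit passed 22.7% of all tested genes, and these 4 were picked by smallest adjusted p in the fit without a block.

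Downstream of TAK1, 21 of 22 kinase genes were tested and had a median log2 fold change of -8e-04. RPS6KA5, a kinase of histones and transcription factors, had 0.55 (SE 0.14, edgeR adjusted p = 0.058). The JNK gene MAPK9 had 0.31 (SE 0.08, edgeR adjusted p = 0.068) and the JNK-activating kinase gene MAP2K4 0.24 (SE 0.09, edgeR adjusted p = 0.17). Another JNK gene, MAPK8, and the p38 gene MAPK14 were lower, at -0.25 and -0.19 (edgeR adjusted p = 0.18 and 0.24), without overlap of the groups. At an unadjusted edgeR p under 0.05, 5 of the 21 genes were higher and these 2 lower. IKBKG, the regulatory subunit of the IKK complex, had 0.79 (SE 0.30, edgeR adjusted p = 0.18), with reads that a near-identical copy could share. It starts at 154541199 on the X chromosome, inside the stretch of genes around IRAK1 described above. With the neighbour offset the log2 fold change was 0.12 for IKBKG, 0.10 for MAPK9 and -0.05 for MAP2K4, and none of these passed. With the block RPS6KA5, MAPK9, MAP2K4 and IKBKG passed (edgeR adjusted p = 0.0017, 0.002, 0.023 and 0.015). MAPK8 and MAPK14 passed with it too.

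Of 24 early response genes, 21 were tested, with a median log2 fold change of 0.07. TNFAIP2 had -1.05 (SE 0.36, edgeR adjusted p = 0.14) at 1.21 ± 0.254 CPM in overexpressing and 2.51 ± 0.814 CPM in wild type cells (SD, n = 3 each). IER2, PPP1R15A and FOSL2 had -0.26, 0.20 and 0.25 (edgeR adjusted p = 0.24, 0.33 and 0.38). PPP1R15A had 0.10 without MTSS1 overexpressing replicate 2, and FOSL2 0.09 or 0.38 once wild type replicate 2 or 3 was left out. With the block TNFAIP2, IER2 and FOSL2 passed (edgeR adjusted p = 0.026, 0.013 and 0.047). Of the relatives of SASH1, SASH3 and SAMSN1 had too few counts to be tested. The reported SASH1 partners CTTN and CRKL had log2 fold changes of -0.08 and -0.07 (edgeR adjusted p = 0.62 and 0.73).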

How the data were processed

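The tools named in the submitters' processing notes are bcl2fastq, HISAT2 2.1.0 and HTSeq, with GRCh38 as the genome build. The deposited values are unnormalised read counts, whole numbers for 64253 Ensembl identifiers, made by the authors from poly(A) libraries of a directional kit, per the labels' protocols. Neither the gene annotation used for counting nor its strand option is stated in the sources used here.

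Symbols came from a current gene name table. Coordinates, gene types and exon lengths came from GENCODE 29 on GRCh38, and promoter sequences from RefSeq on GRCh38.p14. Counts were fitted with edgeR 4.0.16 in R 4.3.3 (TMM scaling, filterByExpr, quasi-likelihood test, two-sided). The SE of a log2 fold change was worked back from this test, as its size divided by the square root of the F statistic. Benjamini-Hochberg adjustment covered all 16091 tested genes, and a gene was called at an adjusted p under 0.05. CPM is a count scaled to a common library size with the TMM factors. The fits were tried on simulated data, with independent libraries and the same dispersion for every gene. That simulation held no shared deviation within neighbouring title numbers, so it does not show how the fits perform on these libraries. Total counts per library lay between 13883380 and 29479453, and intervals cover counting error only.

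The 10 genes, the pathway lists and the tests were chosen with earlier results of these data known. Other genes are named by rule: up to 4 of each list by smallest adjusted p, the 5 genes closest to SASH1 in pattern, and genes between SASH1 and TAB2. The nearest protein-coding genes beside IRAK1, MAP3K7 and SASH1 were named after the data were seen. So were MAPK8, MAPK14, the marker genes given with values and genes named for low counts. Some genes that these rules name are not reported here.

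Alternatives were RLE and upper quartile scaling, DESeq2 1.42.0, no filter, each library left out, an offset equal to the median log2 fold change of the 50 nearest tested genes, and a replicate block. The offset came from these same libraries and was entered as a fixed value, so SEs and calls with it leave out its error. The block takes neighbouring numbers in the library titles as 3 pairs. The labels do not say that these share a day. Deviations from the group means correlated at 0.66, 0.34 and 0.38 within the pairs across genes, and between -0.41 and 0.10 in the other combinations. Deviations within a group cancel out for each gene, so values within the pairs and in the other combinations are not independent.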

Additional observations from a re-analysis of the deposited data

How the results depend on the processing

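The number of changed genes was 688, and 684 and 683 with RLE and upper quartile scaling. It was 1188 with DESeq2, 1489 without a filter on low counts, 3651 with the replicate block, 337 with the neighbour offset and 145 to 346 with 1 library left out. Of the other pathway genes 0 passed, also with RLE and upper quartile scaling, against 6 with DESeq2, 10 without a filter, 28 with the block, 1 with the offset and 0 to 1 with 1 library left out (TLR6, without MTSS1 overexpressing replicate 2). SASH1 passed in every one of these fits. IRAK1 passed except with the offset (-0.0124) and without wild type replicate 3, and TAB2 except with the offset and in 4 fits without 1 library. Of the 10 genes the block changed 1 call, that of MAP3K7. Some other log2 fold changes changed sign: IRAK4 (-0.0172 with the offset and -0.0295 to 0.10 with 1 library left out), TAB1 (-0.17 to 0.0583), S100A9 (-0.33 to 0.74), CRKL (-0.10 to 0.0024) and MAP2K4 (-0.0511 with the offset). The cause of these changes was not tested. With the longest transcript as gene length the order of the 5 most abundant genes was unchanged and TRAF6 ranked 9 in place of 7 in wild type cells. MYD88, with 59 counts over the 6 libraries, was too shallow for a test.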

Other observations

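Taken within neighbouring title numbers, which the labels do not call pairs, the log2 ratio of overexpressing to wild type CPM of SASH1 was -0.82, -0.94 and -0.79 (titles 02 and 03, 09 and 10, 12 and 13). IRAK1 had 0.66, 0.86 and 0.53, and TAB2 -0.47, -0.63 and -0.42. MAP3K7 had -0.27, -0.35 and -0.19. TAB3 was below 0 in all 3 as well, at -0.20, -0.03 and -0.22. TRAF6 and TAB1 were below 0 in 2 of 3, and TOLLIP and IRAK4 in 1 of 3.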
